A study of Mus musculus with 15 samples.

Results

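The expression of 10 protein genes of mitochondrial DNA was examined by bulk RNA-seq in 4T1 cells, an established mouse mammary carcinoma line used as a model of triple-negative breast cancer. The genes were COX1, COX2, COX3, CYTB, ND1, ND2, ND3, ND4, ND5 and ND6, taken by these symbols from a table of counts for 40402 genes. Of the 10 genes, 7 passed a filter of at least 1 CPM (counts scaled to a common library total) in at least 1 library, as did 17647 genes of the whole table. The 7 genes passed it in every library, and COX2, COX3 and ND3 were left out by it. The groups were untreated wild-type 4T1 cells and the same cells treated with an extract of blackberry (BLA) or of blueberry (BLU), or with gold nanoparticles made with blackberry extract (BLA-A) or with blueberry extract (BLU-A). Treatment started 24 hours after seeding. No vehicle group and no group given gold without berry extract was among the samples analysed here.

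The labels number 3 replicates for each condition, each with a batch of its own. The study's sequencing report instead gives 1 total of raw reads for each condition and lists the 3 columns as subsets of it. Its alignment report speaks of 15 libraries, and its counting report of 5 alignment files. The columns of a condition also differed by less than the sampling noise, with a chi-square per degree of freedom of 0.0951 to 0.475, where separate draws give a value near 1. They were averaged and counted as 1 sample, so each condition had n = 1, and no value below has a replicate check. Intervals of 95% cover counting error only. The total counts per library ran from 25613778 to 26956442, and 3 counts, the most that a count of 0 allows, corresponded to 0.111 to 0.117 CPM. The BLA-A library stood apart, with a TMM scaling factor of 0.905 against 1.01 to 1.03 in the other 4 libraries. Of 8 mammary epithelial markers, 6 passed the filter, and the list summed to 956 to 1722 CPM per library. The 10 markers of other cell types summed to 2.46 to 6.89 CPM, with Ins2 at 0 in every library.

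Mitochondrial DNA is a small circle kept in many copies per cell. Besides these genes it carries 3 other protein genes, ATP6, ATP8 and ND4L, with 2 ribosomal RNA genes and 22 transfer RNA genes. Both strands are transcribed into long precursors by a dedicated polymerase, and the transfer RNAs that lie between the genes are cut out to free the messengers. The ND genes encode subunits of complex I, CYTB encodes cytochrome b of complex III, and the COX genes encode the catalytic core of complex IV. Each complex is completed by subunits encoded in the nucleus. The nuclear genome holds old copies of mitochondrial DNA, and reads from a stretch that is identical in both places cannot be assigned to either.

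The largest such copy in GRCm39 lay at chr1:24650616-24655269 on the minus strand and matched MT:6390-11042 over 4654 aligned bases with 99.936% identity. It held COX2 (MT:7013-7696), COX3 (MT:8607-9390) and ND3 (MT:9459-9806) entirely, 31.3% of COX1 (MT:5328-6872) and 63.6% of ND4 (MT:10167-11544). Of the 140-base windows in each gene, 0% of COX2 and COX3, 1.44% of ND3, 40.5% of ND4 and 75.2% of COX1 were found once in the genome. For ND1 (MT:2751-3707), ND2 (MT:3914-4951), ND5 (MT:11742-13565), ND6 (MT:13552-14070, minus strand) and CYTB (MT:14145-15288) it was 100%. The genes have no introns, and the sequences here are written 5′ to 3′ on the plus strand of mitochondrial DNA. The first 140 bases of COX3 are shown with the nuclear copy, since the identity of both decides what could be counted.
COX3, MT:8607-8746: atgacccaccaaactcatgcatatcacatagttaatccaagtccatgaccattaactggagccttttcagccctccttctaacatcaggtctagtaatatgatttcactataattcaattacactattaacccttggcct
nuclear copy, chr1:24652913-24653052: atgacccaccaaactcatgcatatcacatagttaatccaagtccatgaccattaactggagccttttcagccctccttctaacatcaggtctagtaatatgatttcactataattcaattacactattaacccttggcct
The only base substitution between ND3 and the copy was T3C, counted from 1 at the first base of ND3, with the mitochondrial base first. The base that differs is in capitals.
ND3, MT:9459-9518: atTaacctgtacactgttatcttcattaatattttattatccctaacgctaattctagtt
nuclear copy, chr1:24652141-24652200: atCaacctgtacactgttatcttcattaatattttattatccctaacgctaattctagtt
COX1 and ND4 were countable outside the copy. The capitals in the next sequences mark the bases that lie inside it, so that reads from the lower-case side could be placed.
COX1, MT:6330-6449: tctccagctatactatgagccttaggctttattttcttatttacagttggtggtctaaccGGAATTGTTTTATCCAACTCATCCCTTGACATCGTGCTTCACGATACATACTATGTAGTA
ND4, MT:10983-11102: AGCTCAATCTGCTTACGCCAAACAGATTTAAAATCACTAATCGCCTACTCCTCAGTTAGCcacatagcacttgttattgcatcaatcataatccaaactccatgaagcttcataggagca

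**Figure D1:**
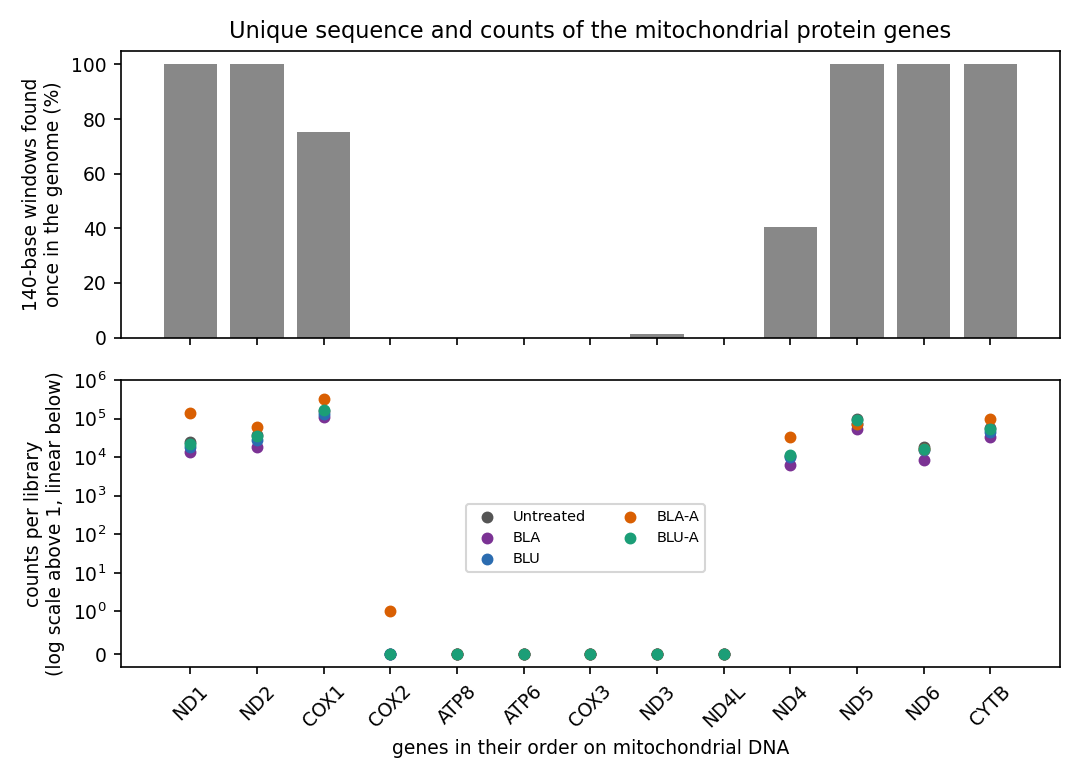
The upper bars give the percent of 140-base windows of each mitochondrial protein gene found once in GRCm39, and the points below give its counts in each of the 5 libraries (log scale above 1 count), with genes in their order on mitochondrial DNA. The 6 genes from COX2 to ND4L have at most 1.44% of unique windows and at most 1 count, and the 7 genes on both sides have at least 6440 counts in each library.

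The core subunits COX2 and COX3 of complex IV and the complex I subunit ND3 had almost no counts. ND3 was listed at 0 in every column. COX3 had 1 count in 1 column of BLU and 0 elsewhere, and COX2 had 0, 2 and 2 counts in the columns of BLA-A and 0 elsewhere. ATP6, ATP8 and ND4L, which lie in the same stretch, were at 0 in every column. The authors counted only reads that aligned to 1 place, so these zeros give no level of the RNA, and no fold change was computed for these genes.

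The 7 measured genes together took 1.55% of all counts in untreated cells (95% interval 1.54% to 1.55%, Wilson). They took 1.55% in BLU-A, 1.19% in BLU, 0.917% in BLA and 2.93% in BLA-A. On TMM-normalized CPM, which corrects for library size and composition, the sum was 14979 in untreated cells, 15057 in BLU-A, 11612 in BLU, 9077 in BLA and 32409 in BLA-A. Both plain extracts were below untreated cells, BLA-A was above them, and BLU-A was level with them. The log2 fold changes of the sum were 0.01 in BLU-A, -0.37 in BLU, -0.72 in BLA and 1.11 in BLA-A. Scaling by total counts alone moved the median of all genes in BLA-A by -0.17 on the log2 scale and gave 0.92 for the sum in BLA-A. In bulk samples, fewer cells rich in mitochondria and less mitochondrial RNA per cell cannot be told apart. The share of counts of Gm26917, an abundant ribosomal-RNA-like RNA, was 5.94% in untreated cells, 5.28% in BLU-A, 4.55% in BLU, 6.40% in BLA and 7.84% in BLA-A, and its part in these shares was not tested.

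COX1, the catalytic subunit of complex IV, had the highest level of the 7 genes in each library. Its TMM-normalized CPM was 5865 in untreated cells, 6203 in BLU-A, 4695 in BLU, 4053 in BLA and 14209 in BLA-A. It was the third most counted gene of the whole table in untreated cells and the second in BLA-A. The log2 fold changes against untreated cells, on CPM plus 0.5, were 0.08 in BLU-A, -0.32 in BLU, -0.53 in BLA and 1.28 in BLA-A. COX1 thus had the smallest difference of the 7 genes in BLA and the third largest in BLA-A. CYTB, the only complex III subunit in mitochondrial DNA, was at 2133 CPM in untreated cells, 2084 in BLU-A, 1673 in BLU, 1248 in BLA and 4274 in BLA-A. The CYTB level in BLA-A was 2.00 times that of untreated cells, a log2 fold change of 1.00 that lay just past the threshold of 1 and was 0.81 with scaling by total counts and 0.996 without the columns numbered 2.

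Among the complex I genes, ND1, a membrane subunit near the quinone site, was at 924 CPM in untreated cells, 805 in BLU-A, 651 in BLU, 509.7 in BLA and 5956 in BLA-A. BLA-A was 6.44 times untreated cells, with a log2 fold change of 2.69 (counting interval 2.67 to 2.71), and the other 4 libraries lay within 1.81-fold of each other. In counts alone, ND1 ranked 61 in the table in untreated cells and 6 in BLA-A. ND4, a proton-pumping subunit, was at 411 CPM in untreated cells, 418 in BLU-A, 360.2 in BLU, 236 in BLA and 1444.5 in BLA-A. BLA-A again stood above the rest, at 3.51 times untreated cells. ND2, a related pump subunit, was at 1381 CPM in untreated cells, 1339 in BLU-A, 988 in BLU, 693 in BLA and 2682 in BLA-A. The log2 fold changes of ND2 were just inside the threshold in both blackberry libraries, at -0.99 in BLA and 0.96 in BLA-A.

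ND5 and ND6 did not follow the other 5 genes in BLA-A. ND5, the most distal pump subunit, was at 3588 CPM in untreated cells, 3576 in BLU-A, 2687 in BLU, 2023 in BLA and 3144 in BLA-A, with a log2 fold change of -0.19 in BLA-A. ND6, the only one of these protein genes read from the other strand, was at 676 CPM in untreated cells, 632 in BLU-A, 557 in BLU, 314 in BLA and 698 in BLA-A. Its log2 fold change in BLA-A was 0.05, and it turned to -0.15 with scaling by total counts and to -0.02 when only genes with at least 10 counts in every library were kept. In BLA, ND6 was 2.15-fold lower than in untreated cells, the largest difference of the 7 genes there. The ends of ND5 and ND6 overlap by 14 bases at MT:13552-13565 on opposite strands, and the stretch around them is shown since both genes stayed apart from the rest. The capitals mark the bases that belong to both genes.
end of ND5 and end of ND6, MT:13502-13615: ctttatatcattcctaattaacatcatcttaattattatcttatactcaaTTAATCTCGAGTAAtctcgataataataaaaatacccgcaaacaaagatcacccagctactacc
ND6 also differed in base composition. Its coding strand held 28.1% G and 5.97% C, while the other 12 protein genes held 5.88% to 16.1% G and 22.1% to 29.97% C. The counting was set to the forward strand, but the alignment report lists the reads as merged single-end files, and whether both mates were counted is not given in the sources used here. Reads from ND6 and from the RNA opposite to it may therefore not be told apart.

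**Figure D2:**
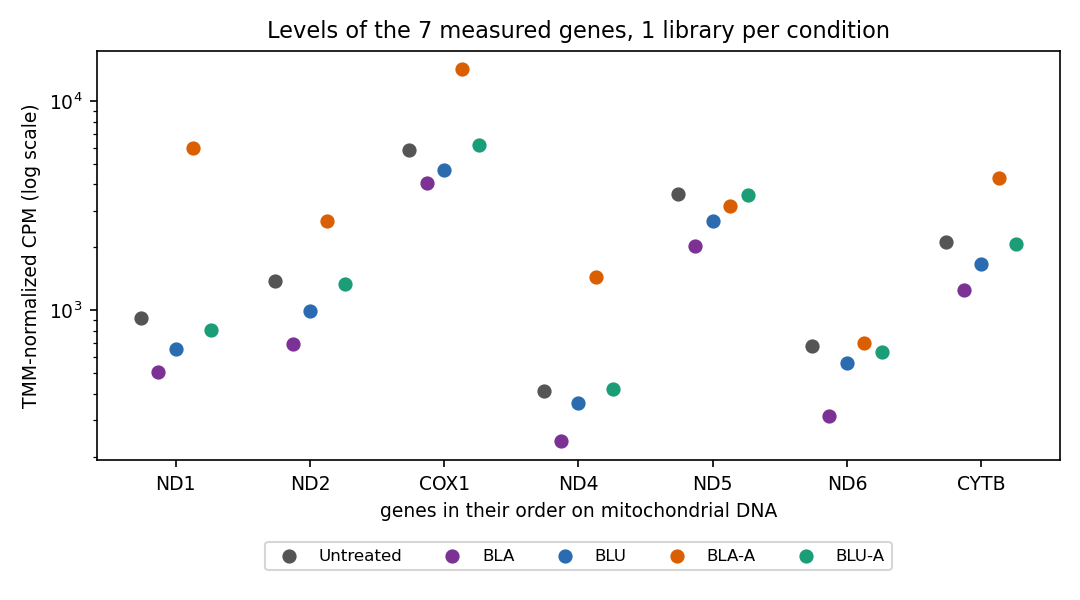
Each point is the TMM-normalized CPM (log scale) of 1 of the 7 measured genes in 1 library, with genes in their order on mitochondrial DNA. BLA is the lowest point of each gene, and BLA-A is the highest for each gene except ND5, where it is 3144 CPM against 3588 in untreated cells.

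Each treatment was set against the same untreated library. In BLA, 1 of the 7 genes, ND6, was past a log2 fold change of 1 and lower, where 8.54% of all 17647 genes tested were, and none was past it and higher, where 7.92% were. The 7 log2 fold changes ran from -1.11 to -0.53 with a median of -0.83. In BLU none of the 7 genes was past the threshold in either direction, where 5.66% of all genes were higher and 4.64% were lower, and the median was -0.35. In BLA-A, COX1, CYTB, ND1 and ND4 were past it and higher, 4 of 7 against 8.54% of all genes. None was past it and lower, where 12.4% of all genes were. The median in BLA-A was 1.00, with a range from -0.19 to 2.69. In BLU-A none was past it, against 3.35% higher and 4.5% lower over all genes, and the 7 values lay between -0.20 and 0.08. The count in BLA depended on the scaling, since ND2 joined ND6 with total counts at -1.03. With all 4 treated libraries set against the untreated one, none of the 7 genes passed, against 0.0227% of all genes, at an adjusted p of 0.999 for each (edgeR quasi-likelihood test, Benjamini-Hochberg adjustment). None had an unadjusted p under 0.05 either, while 481 of all genes had. The untreated side was 1 library and the spread came only from libraries of 4 different treatments, whose values lay on both sides of untreated cells (ND1 at -0.86 in BLA and 2.69 in BLA-A), so this test says little of any 1 treatment.

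**Figure D3:**
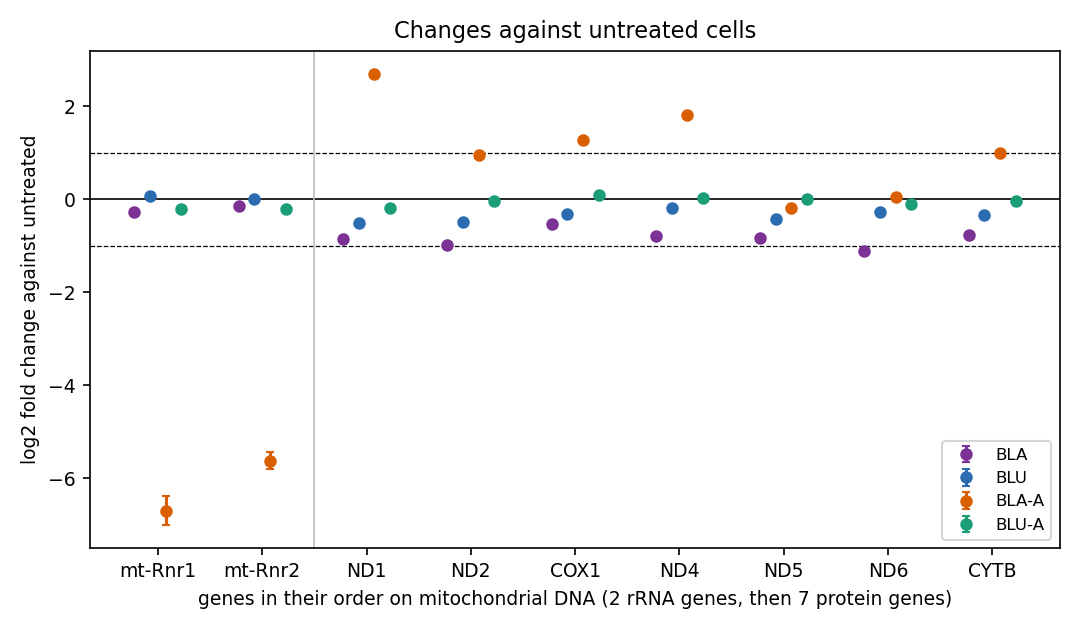
Points are log2 fold changes against the untreated library, on TMM-normalized CPM plus 0.5, for the 2 mitochondrial ribosomal RNA genes and the 7 measured protein genes in each treatment. Bars are 95% counting intervals, most of them smaller than the point, and dashed lines mark 1 and -1. In BLA-A the ribosomal RNA genes lie at -6.70 and -5.62 and ND1 at 2.69.

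The make-up of the 7 genes differed most in BLA-A. ND1 gave 6.17% of their summed counts in untreated cells, 5.35% in BLU-A, 5.61% in BLU and 5.62% in BLA, but 18.4% in BLA-A. ND5 gave 24.0%, 23.7%, 23.1% and 22.3% in those 4 libraries and 9.70% in BLA-A. These ratios within a library do not depend on the scaling. The ratio of ND1 to ND5 counts was 0.258 in untreated cells (counting interval 0.254 to 0.261), 0.225 in BLU-A, 0.242 in BLU and 0.252 in BLA, and it was 1.89 in BLA-A (1.88 to 1.91). The ratio of ND4 to ND5 was 0.115 in untreated cells and 0.459 in BLA-A, and that of COX1 to ND5 was 1.63 and 4.52. The ratio of ND6 to ND5 moved less, from 0.188 in untreated cells to 0.155 in BLA, 0.207 in BLU and 0.222 in BLA-A. The 7 log2 fold changes against untreated cells spanned 0.28 in BLU-A, 0.31 in BLU, 0.57 in BLA and 2.88 in BLA-A, where the widest counting interval was 0.044 to each side. Per kilobase of unique windows, the order in untreated cells was COX1 at 5549 CPM, ND5 at 2129, CYTB at 2123, ND6 at 1779.8, ND2 at 1536, ND1 at 1129.9 and ND4 at 819. In BLA-A, ND1 was the second at 7281 and ND6 the last at 1838.

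**Figure D4:**
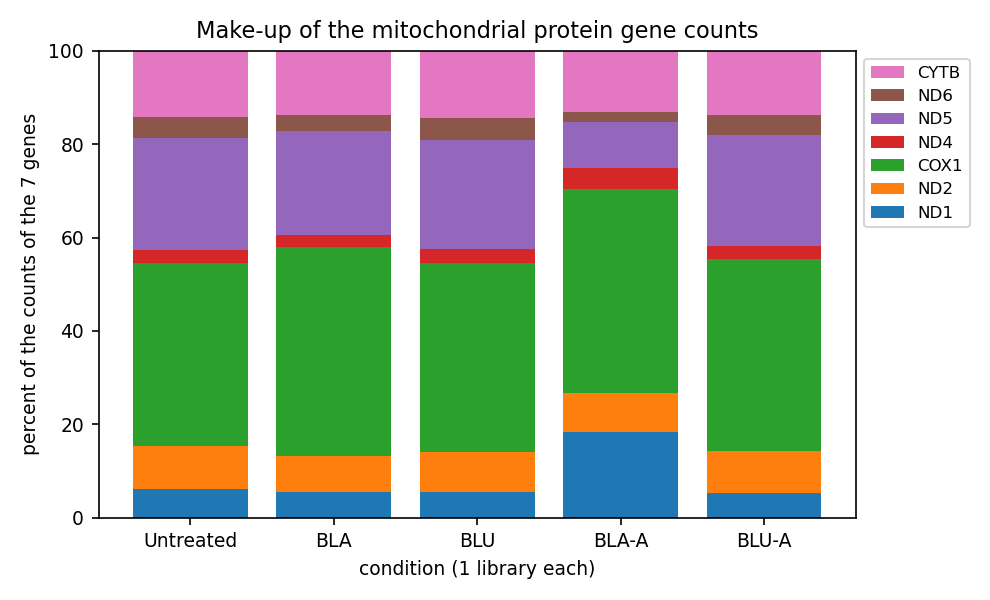
Stacked bars give the percent of the summed counts of the 7 measured genes that each gene took in each library. The ND1 part is 18.4% in BLA-A and at most 6.17% in the other 4 libraries, and the ND5 part is 9.70% in BLA-A and at least 22.3% elsewhere.

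The ribosomal RNAs of mitochondrial DNA lie directly upstream of ND1 on the same strand, separated from it by the leucine transfer RNA TrnL1. The junction is shown because the values on both sides of it differed in BLA-A, and TrnL1 is in capitals.
end of mt-Rnr2, TrnL1 and start of ND1, MT:2616-2840: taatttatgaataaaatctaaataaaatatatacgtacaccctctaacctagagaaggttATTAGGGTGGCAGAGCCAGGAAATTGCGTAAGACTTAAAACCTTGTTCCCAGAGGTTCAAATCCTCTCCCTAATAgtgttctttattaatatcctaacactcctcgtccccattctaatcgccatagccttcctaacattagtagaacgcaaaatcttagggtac
The large ribosomal RNA mt-Rnr2 was at 556 CPM in untreated cells, 483 in BLU-A, 554 in BLU, 501 in BLA and 10.8 in BLA-A. The small one, mt-Rnr1, was at 414, 360.4, 436, 341 and 3.49 CPM in the same order. In BLA-A they were 51.5-fold and 119-fold lower than in untreated cells, while ND1 was 6.44-fold higher. For each mt-Rnr2 count there were 1.66 ND1 counts in untreated cells and 552 in BLA-A. Ribosomal RNA had been removed by enzymatic digestion before sequencing, so the counts are of what was left, and the part of that step in the levels of the 7 genes was not tested. Lars2, the mitochondrial leucyl-transfer-RNA synthetase gene, was named from the list of nuclear-retained and ribosomal-RNA-like RNAs. Its row was lower in BLA-A too, at 25.6 CPM against 156.9 in untreated cells (a log2 fold change of -2.59). The part of ribosomal RNA removal in this value was not tested. Of the 22 transfer RNA genes, 7 passed the filter, each at no more than 17.2 CPM. TrnW, just downstream of ND2, was at 3.19 CPM in untreated cells and 17.2 in BLA-A. TrnQ, between ND1 and ND2, was at 2.63 and 11.2. TrnM, also between ND1 and ND2, went the other way, at 1.58 and 0.26 CPM on 42 and 6 counts. TrnA was at 0.98 and 4.055 CPM, and TrnY was at 1.39 and 1.21. TrnP, separated from CYTB by TrnT, was at 1.91 and 13.5 CPM, whereas TrnE, between ND6 and CYTB, was at 8.97 and 2.89. TrnQ, TrnA, TrnY, TrnP and TrnE lie on the minus strand, so the limit on strands given for ND6 holds for them too.

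The 7 genes were also compared between formulations and between berries, with 2 libraries on each side. Against its own extract, BLA-A was higher for each of the 7 genes, by log2 values of 0.64 for ND5, 1.15 for ND6, 1.78 for CYTB, 1.81 for COX1, 1.95 for ND2, 2.61 for ND4 and 3.55 for ND1. BLU-A was higher than BLU by 0.18 for ND6 to 0.44 for ND2. Here too the spread came from libraries of different treatments, since no condition had a second one. In the test of both nanoparticles against both extracts, ND2 had a log2 difference of 1.26 (SE 0.34, unadjusted p = 0.0078), COX1 of 1.22 (SE 0.35) and ND1 of 2.54 (SE 0.78). The unadjusted p was under 0.05 for 6 of the 7, and it was 0.071 for ND6. No gene passed the adjustment, neither among the 7 nor over all genes (0% called, adjusted p of 0.702 for each of the 7, edgeR quasi-likelihood test), where 1058 had an unadjusted p under 0.05. DESeq2 called 36 genes, none of them among the 7. The call rested on the libraries used. Without BLA-A, COX1 (log2 difference 0.50, adjusted p = 0.0019) and ND5 (0.60, adjusted p = 0.019) passed the edgeR quasi-likelihood test, where 0.269% of all genes did. Without BLU-A each of the 7 passed, where 24.3% of all genes did, with a single nanoparticle library assumed to vary like the rest.

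Between berries, BLA was below BLU for each gene, by log2 values of -0.83 for ND6 to -0.21 for COX1. BLA-A was above BLU-A by 2.89 for ND1, 1.79 for ND4, 1.20 for COX1, 1.04 for CYTB and 1.00 for ND2, by 0.14 for ND6, and it was below it for ND5, at -0.19. The difference between berries thus had opposite signs in extracts and nanoparticles for 6 of the 7 genes, which was not tested with 1 library on each side. In the test of both blackberry against both blueberry libraries, none of the 7 genes passed and none had an unadjusted p under 0.05 (0% of all genes called, adjusted p of 0.947 or more, edgeR quasi-likelihood test). Over all genes 674 had an unadjusted p under 0.05, and DESeq2 called 27. Without BLA-A, 6 of the 7 genes passed, each lower in BLA, from -0.43 for COX1 to -0.92 for ND6, where 1.93% of all genes passed. Without BLA 5 passed, each higher in BLA-A, where 29.3% of all genes did.

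The nuclear genes that complete the same complexes were taken as lists, to be read beside the shares of all genes past 1, which were 8.54% lower in BLA and 8.54% higher and 12.4% lower in BLA-A. Of 36 complex I subunits, 6 were past a log2 fold change of 1 and lower in BLA, with a median of -0.53 where the median over all genes lay near 0. In BLA-A, 5 were past it and higher and 3 lower, with a median of 0.24. Ndufb11 was at 11.1 CPM in untreated cells and 27.5 in BLA-A, and Ndufa12 was at 52.8 and 20.8. Of 9 complex III subunits, 2 were lower past 1 in BLA, and in BLA-A 2 were higher and 1 lower. Uqcrh, the hinge protein, was at 28.9 CPM in untreated cells, 18.3 in BLA and 102.6 in BLA-A, and Uqcr11 was at 8.89, 2.24 and 34.4. Uqcrq and Cyc1 were below untreated cells in BLA-A too, at 111.0, 62.5 and 52.9 CPM and at 50.7, 24.1 and 45.3. Of 11 complex IV subunits, 3 were lower past 1 in BLA and 3 were higher in BLA-A, where 7 lay above 0 and 4 below it. Cox6a1 was at 63.0 CPM in untreated cells, 28.1 in BLA and 150.2 in BLA-A, and Ndufa4, a subunit associated with complex IV, was at 22.2, 8.55 and 100.3. None of the nuclear subunits in these 3 lists was past 1 in BLU or BLU-A. Of all genes, 5.66% were higher and 4.64% lower in BLU, and 3.35% higher and 4.5% lower in BLU-A. The lists had lower medians in BLA (-0.53, -0.65 and -0.81) and higher ones in BLA-A (0.24, 0.59 and 0.58), beside -0.83 and 1.00 for the mitochondrial genes.

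The genes that transcribe and copy mitochondrial DNA had medians near 0. Of 16 such genes, 1 was past 1 and lower in BLA, where 8.54% of all genes were. In BLA-A 2 were higher and 2 lower, beside 8.54% and 12.4% of all genes. Polrmt, the mitochondrial RNA polymerase, was at 8.74 CPM in untreated cells, 8.87 in BLU-A, 4.93 in BLU, 9.58 in BLA and 21.2 in BLA-A. Tfam, which packages mitochondrial DNA and starts its transcription, was at 30.9, 26.9, 26.8, 27.3 and 20.5 CPM in the same order. Mgme1, a mitochondrial DNA exonuclease, was at 20.2 CPM in untreated cells and 7.38 in BLA-A. Polrmt and Tfam therefore differed in opposite directions in BLA-A. Of 19 measured genes of mitochondrial RNA processing and decay, 1 was past 1, lower in BLU, where 4.64% of all genes were. Lrpprc, which stabilises mitochondrial messengers, was at 171.0, 171.1, 185.4, 173.1 and 106.4 CPM, lowest in BLA-A. Of 9 regulators of mitochondrial biogenesis, 1 was past 1 and lower in BLA, where 8.54% of all genes were. In BLA-A 1 was higher and 1 lower, beside 8.54% and 12.4% of all genes. Esrra, a nuclear receptor of that group, was at 11.2 CPM in untreated cells and 26.7 in BLA-A. Of 77 measured mitochondrial ribosomal protein genes, 3 were lower past 1 in BLA, 1 in BLU and 7 in BLA-A, where 4 were higher, beside 8.54%, 4.64% and 12.4% of all genes lower and 8.54% higher. The nuclear-retained RNA Malat1 was at 1616 CPM in untreated cells, 2289 in BLU-A, 3117 in BLU, 3707 in BLA and 3087 in BLA-A, and Neat1 was at 193, 403, 475, 667 and 242. Both were highest in BLA, where the mitochondrial genes were lowest, and their part in those values was not tested.

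**Figure D5:**
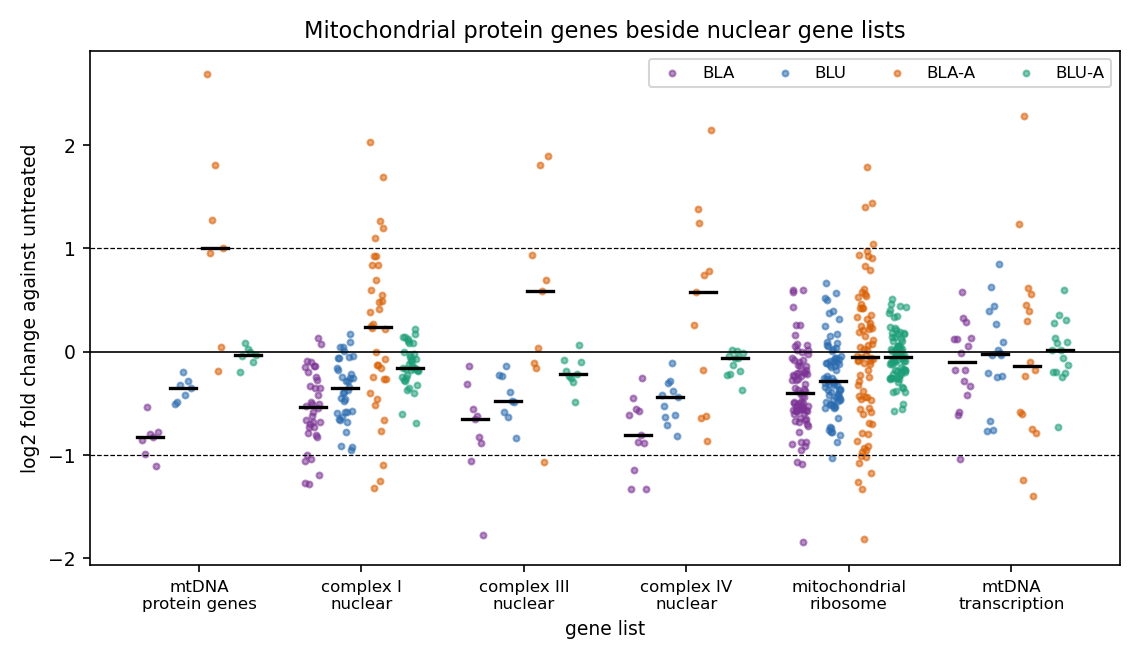
Each point is the log2 fold change of 1 measured gene against untreated cells in 1 of the 4 treatments, on TMM-normalized CPM plus 0.5, for the 7 mitochondrial protein genes and 5 lists of nuclear genes. Black bars are medians and dashed lines mark 1 and -1. The medians of the mitochondrial genes are -0.83 in BLA and 1.00 in BLA-A, and those of the complex IV subunits are -0.81 and 0.58.

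The genes whose levels followed the sum of the 7 genes most closely were ranked by Pearson correlation of log2 levels over the 5 libraries, among 4530 genes with a mean of at least 50 CPM. With 5 points of which 1, BLA-A, lies far from the rest, this is a description only. The closest were Rhoc, Gusb, Rplp1, Nup214 and Actn4, each with a correlation over 0.998. Rplp1, a cytosolic ribosomal stalk protein, had a wider range than the sum, at 251 CPM in untreated cells, 226 in BLU-A, 147 in BLU, 95.3 in BLA and 917 in BLA-A. Rhoc, a small GTPase, ran from 63.4 CPM in BLA to 158.8 in BLA-A. The most opposite were Cep112, Ppp2r5c and N4bp2, and Cep112 was at 56.9 CPM in untreated cells, 75.9 in BLA and 33.5 in BLA-A.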

How the data were processed

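RNA-seq of 5 conditions was used, with the columns of each condition taken as 1 library as described above. After ribosomal RNA removal, the authors aligned reads to GRCm39 with STAR and counted uniquely aligned reads on features of type gene in OmicsBox, with a lowest mapping quality of 10. They deposited these counts per gene without normalization, in 15 columns. The labels also name DESeq2 1.36.0. The deposited fold changes and p-values of the authors' own comparison were not used, nor were their enrichment scores.

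The columns of a condition were averaged and rounded. Genes under 1 CPM in every library were left out. TMM scaling was done in edgeR 4.0.16 (R 4.3.3), and fold changes were computed as log2 of CPM with 0.5 added. A value past 1 in size was counted, with no test, for each treatment against untreated. Groups of libraries were compared by quasi-likelihood tests in edgeR, with p-values adjusted by Benjamini-Hochberg over 17647 genes and a threshold of 0.05, and DESeq2 1.42.0 was an alternative. The other alternatives were the scaling, the filter, the pseudocount, the reference library, the handling of columns and leaving out libraries. The tests were run on simulated data of 17647 genes with 200 changed. At a coefficient of variation of 0.45, 4-fold changes were found in 4% of cases for treated against untreated. They were found in 1% for nanoparticle against extract and 0% for blackberry against blueberry. In the same order, 16-fold changes were found in 91%, 95% and 98%. At a coefficient of 0.2, 4-fold changes were found in 96%, 99% and 96%, so the result depends on the coefficient assumed. False calls ran from 0 to 13 per run. Changes were placed only in genes above a minimum mean count. The simulated libraries of a group shared the same mean, while the treated libraries grouped here had different treatments. The rates may therefore not hold for the tests run here. Intervals of shares are Wilson intervals.

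Nuclear copies were found by aligning the mitochondrial genome to GRCm39 with blastn 2.17.0, and windows of 140 bases were searched on both strands. With 75 bases, 60.2% of COX1, 38.5% of ND4, 94.3% of ND2, 98.3% of ND5 and 97.1% of mt-Rnr2 windows were unique. ND1, ND6 and CYTB stayed at 100%. Positions are from GENCODE release M39, and the 13 mitochondrial protein genes of the table were matched to it by start and end position. Named genes are the 10 members, the other mitochondrial genes, Tfam, Polrmt, Lrpprc, the abundant RNAs Malat1, Neat1 and Gm26917 (Gm42418, also in this rule, had no row in the table), up to 4 genes per list with a mean of at least 10 CPM and a log2 fold change past 1, and the genes closest to the summed level among those with a mean of at least 50 CPM. The members and the lists were chosen with earlier results of these data known.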

Additional observations from a re-analysis of the deposited data

Results flagged for a closer look

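Among the 4 treated libraries, 1 library lay far from the other 3 for 3 mitochondrial genes, as the gap to its nearest neighbour took most of the range over the libraries. ND1 was at 5956 CPM in BLA-A and at no more than 805 in the other 3. ND4 was at 1444.5 CPM in BLA-A and at no more than 418 elsewhere. The large ribosomal RNA mt-Rnr2 was at 10.8 CPM in BLA-A and at no less than 483 elsewhere. Chance flags about 1 in 20 groups of this size, and each of the 4 libraries had another treatment. The blackberry and blueberry libraries differed in opposite directions in extracts and in nanoparticles for 6 genes, a difference that was not tested since each side had 1 library. BLA-A minus BLU-A was 1.20 for COX1, 1.04 for CYTB, 2.89 for ND1, 1.00 for ND2, 1.79 for ND4 and 0.14 for ND6 on the log2 scale, and BLA minus BLU was below 0 for each.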

How the results depend on the processing

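With the abundant RNAs Gm26917, Malat1 and Neat1 left out of the total, the share of the mitochondrial protein genes was 1.65% in untreated cells, 1.64% in BLU-A, 1.25% in BLU, 0.985% in BLA and 3.19% in BLA-A. Without the mitochondrial genes in the total it was 1.57%, 1.58%, 1.21%, 0.927% and 3.02%, and untreated cells and BLU-A, which lay next to each other, changed order only in the first of these. The log2 fold change of the sum in BLA was -0.76 with total counts, -0.74 with median-of-ratios factors, -0.71 with no filter, -0.74 with at least 10 counts in every library and -0.91 against the mean of the other 4 libraries. In BLU it was -0.38, -0.42, -0.35, -0.38 and -0.47, and in BLA-A it was 0.92, 1.17, 1.21, 1.05 and 1.38. In BLU-A it was -0.017 with median-of-ratios factors, 0.025 with no filter and -0.0088 with the 10-count minimum. The genes lower past 1 in BLA were 2 with total counts, with median-of-ratios factors and with the 10-count minimum, and 4 against the other 4 libraries. Those higher in BLA-A ranged from 3 to 5. Over all genes, the number past 1 ranged under the alternatives from 788 to 1825 higher and 584 to 2315 lower in BLA, and from 1077 to 1885 higher and 1157 to 2853 lower in BLA-A.

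For treated against untreated, 2 genes passed with the 10-count minimum, 18 with DESeq2 and 45 without BLA-A, the highest value with a library left out. For nanoparticle against extract, 554 genes and 5 of the 7 members passed with no filter, 36 genes with DESeq2 and 3 with berry as a covariate. With a treated library left out, 1 to 4224 genes and 0 to 7 members passed, 47 genes and 2 members without BLA-A. For blackberry against blueberry, 289 genes and 2 members passed with no filter, 27 genes with DESeq2 and 7 with formulation as a covariate. With a treated library left out, 20 to 5054 genes and 0 to 6 members passed, 338 genes and 6 members without BLA-A. In that setting the differences of COX1, CYTB, ND2 and ND4 reversed from 0.74, 0.56, 0.54 and 1.11 to -0.43, -0.59, -0.75 and -0.72, and that of ND1 went from 2.15 to -0.51 (adjusted p = 0.103 in edgeR). Without BLA the first 4 were at 1.38, 1.18, 1.20 and 1.89. The lone library of a group was then assumed to vary like the others, and the cause was not tested. With the 15 columns taken as replicates, which their chi-square does not allow, 3553 genes passed for treated against untreated, 8909 with 7 members for nanoparticle against extract and 6927 with 1 member for blackberry against blueberry. The fit with the replicate block gave 2498, 7744 with 7 members and 5617 with 1 member. The numbers do not pair the samples, since the deviations of same-numbered columns had correlations of -0.025 to 0.017 over 30 pairs. Leaving out 1 column of each condition moved no share and no fold change of the sum past its counting interval and gave 0 genes for the last 2 comparisons, but without the columns numbered 2 CYTB was at 0.996 in BLA-A and 3 genes in place of 4 were higher past 1. Depth did not limit the 7 genes, with at least 6440 counts in each library, and 1 library per condition did.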
